A study of Mus musculus with 8 samples.

Results

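miR-126 is a single hairpin with 2 mature strands, each read by 1 assay in laser-captured arterial tissue of the mouse. The members are the assays named mmu-miR-126-3p and mmu-miR-126-5p, 2 of 517 mouse miRNA assays in a real-time PCR table, chosen by name. Both lay on the first of 2 assay panels, and 0 of their wells failed to amplify. Tissue was taken by laser capture microdissection from sections 20 µm thick, at least 40 per mouse. The plaque group (4 samples) was early plaque of the aortic root, and the undiseased group (4 samples) was wall of normal morphology labelled as artery. All mice were female and Apoe-/-, so they lacked apolipoprotein E in the control tissue too. The labels give an age of 6 to 8 weeks, and all mice had 3 months of a high-fat diet that held cholesterol (0.15%), casein (19.5%) and crude fat (21%). The sectioned vessels were aortic roots and carotid arteries. The effects of plaque and of the site along the arterial tree cannot be told apart here, and whether any mouse gave both tissues is not stated.

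miR-126 is the best known miRNA of endothelial cells, and its hairpin is cut from an intron of Egfl7, a gene that endothelium expresses and secretes as a matrix protein. The 3p strand is known to lower Spred1 and Pik3r2, inhibitors of signalling from the VEGF receptor, and to limit Vcam1, the adhesion molecule that binds leukocytes. The 5p strand is known from mouse arteries to target Dlk1 and so to permit endothelial proliferation. Platelets and blood progenitor cells carry miR-126 as well.

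The RefSeq tables (build GRCm38.p6) place the hairpin at chr2:26591357-26591429 on the plus strand, within Egfl7. They held a mature sequence for 1 of the 2 members, miR-126-3p, which occupies bases 46 to 67 of the hairpin. The sequences are shown because the 2 assays read 2 strands of 1 precursor, and because RefSeq also lists a miRNA on the opposite strand of the same site. Capitals mark the mature 3p strand in the hairpin, and the seed (bases 2 to 8, which pair with targets) in the mature sequences.
Mir126a hairpin: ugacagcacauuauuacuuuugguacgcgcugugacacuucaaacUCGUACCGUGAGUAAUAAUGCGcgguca
mmu-miR-126a-3p: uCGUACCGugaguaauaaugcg
mmu-miR-126b-5p: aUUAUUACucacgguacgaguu
The seed of miR-126a-3p was shared by 0 other mature mouse miRNAs in that table of 1679 names. miR-126b-5p is complementary to miR-126a-3p over 19 bases, and whether an assay read any of it was not tested.

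miR-126-3p amplified late in 3 of the 4 plaque samples and as early as in undiseased wall in the fourth. The raw threshold cycle (Ct) is the PCR cycle at which fluorescence crosses a set line, and a later Ct means less template (1 cycle for each 2-fold at full PCR efficiency, a property the table does not give). The Ct of miR-126-3p was 25.4, 30.0, 28.7 and 22.9 in plaque 1 to 4, against 22.6, 23.0, 22.3 and 23.6 in undiseased artery 1 to 4. Plaque 4 thus lay inside the undiseased range, and the other plaque samples lay at least a full cycle later than every undiseased one. The means were 26.7 ± 3.22 in plaque and 22.9 ± 0.567 in undiseased artery (SD, n = 4 each), a difference of 3.84 cycles (exact permutation test, two-sided, p = 0.0857). With 70 arrangements, 0.0286 is the smallest p this design can give.

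miR-126-5p was later in every plaque sample than in any undiseased one. Its Ct was 28.4, 34.0, 31.8 and 28.5 in plaque 1 to 4, against 25.5, 26.6, 25.3 and 26.6 in undiseased artery 1 to 4. The means were 30.7 ± 2.71 in plaque and 26.0 ± 0.691 in undiseased artery (SD, n = 4 each), 4.72 cycles apart, and the exact permutation test gave p = 0.0286. The raw Ct of 36.6% of the 172 tested miRNAs likewise had no overlap and was later in plaque, so a separation in raw Ct was common on these panels. In limma, which fits a linear model to all tested miRNAs and passes those with an adjusted p under 0.05, both arms passed on raw Ct, with adjusted p = 0.0263 for miR-126-3p and 0.00909 for miR-126-5p, where 47.1% of the tested miRNAs were called later in plaque. The weakest miR-126 well was that of the 5p arm in plaque 2, the single one within about a cycle of the detection limit of 35.

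**Figure D1:**
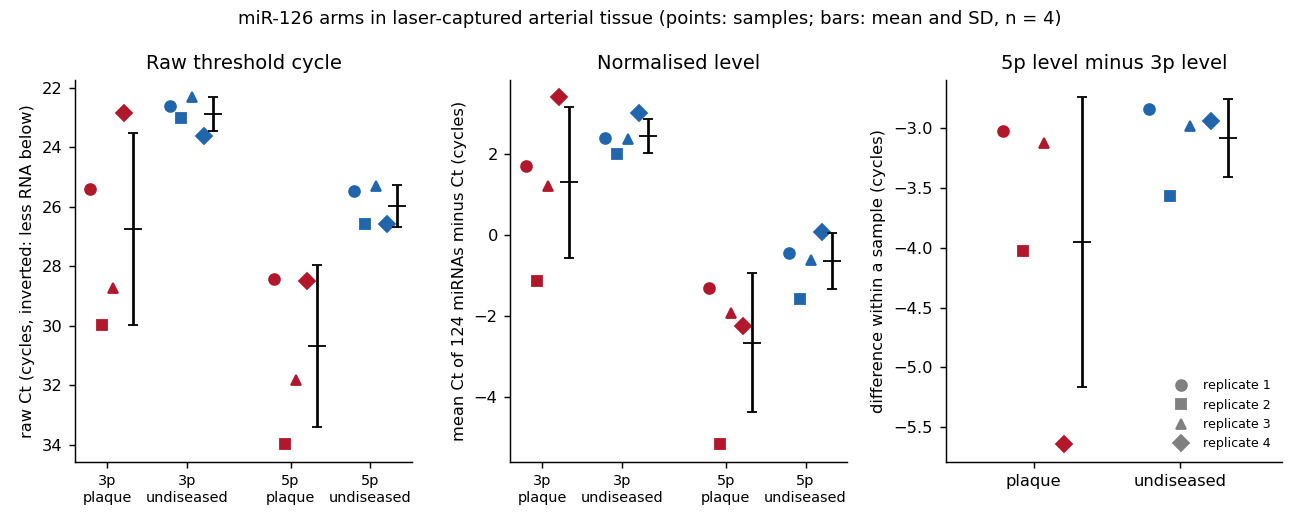
Raw Ct (left, axis inverted so that less RNA is lower), normalised level (middle) and the level of miR-126-5p minus that of miR-126-3p (right), all in cycles, for 4 plaque samples (red) and 4 undiseased samples (blue), with the mean and SD beside each group. Plaque 2 is lowest for both arms, at 30.0 and 34.0 raw cycles, and plaque 4 has the widest gap between arms, at -5.64.

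Amplification was later in plaque for the miRNAs at large too. Of all miRNAs, 124 were detected (Ct under 35) in every one of the 8 samples. Averaged over these 124, the raw Ct was 27.1, 28.8, 29.9 and 26.3 in plaque 1 to 4, against 25.0, 25.0, 24.7 and 26.6 in undiseased artery 1 to 4. The group means differed by 2.70 cycles (exact permutation test, p = 0.0571, 4 against 4 samples), and plaque 4 lay inside the undiseased range. Levels below are this mean minus the Ct of the arm, in cycles, so that a higher level means a larger share of the amplified miRNA. In bulk tissue, fewer endothelial cells and less miR-126 per cell cannot be told apart.

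Relative to that mean, miR-126-3p did not pass the test. Its normalised level was 1.71, -1.13, 1.20 and 3.40 in plaque 1 to 4, against 2.39, 2.00, 2.37 and 3.01 in undiseased artery 1 to 4. The lowest and the highest of all 8 values were both plaque samples, plaque 2 and plaque 4, with the undiseased values between them. The mean level was 1.30 ± 1.87 in plaque and 2.44 ± 0.42 in undiseased artery (SD, n = 4 each). The log2 fold change was -1.15 (SE 0.80, adjusted p = 0.291 in limma over 172 miRNAs), a 2.21-fold lower level whose 95% interval ran from -2.90 to 0.61. The exact permutation test of the group means gave p = 0.314.

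miR-126-5p was lower by more, yet also short of the threshold. Its normalised level was -1.31, -5.16, -1.92 and -2.24 in plaque 1 to 4, against -0.45, -1.57, -0.61 and 0.07 in undiseased artery 1 to 4. Of the 4 plaque samples 3 lay below every undiseased one, and plaque 1 lay just above undiseased artery 2. The mean level was -2.66 ± 1.71 in plaque and -0.64 ± 0.68 in undiseased artery (SD, n = 4 each). The log2 fold change was -2.02 (SE 0.78, adjusted p = 0.0655, unadjusted p = 0.0244 in limma), a 4.05-fold lower level with a 95% interval from -3.72 to -0.31, unadjusted for the number of miRNAs. That SE draws on the spread of all tested miRNAs and takes it as equal in both groups. From the SDs of this arm alone the SE was 0.92. The exact permutation test of the group means gave p = 0.0571. So 0 of the 2 arms passed, where 34.3% of the 172 tested miRNAs did (18.6% lower and 15.7% higher in plaque).

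Among all tested miRNAs the 5p arm stood near the low end and the 3p arm did not. Ordered by fold change from the lowest, miR-126-5p was number 15 of 172 and miR-126-3p number 48. Among the 109 tested on the same panel they were number 13 and number 42. That panel matters for the scale, since its median log2 fold change was -0.73, against 0.82 for the 63 tested miRNAs of the second panel and -0.11 for all 172. When the 2 panels were centred separately, the fold change of miR-126-3p was -0.59 (adjusted p = 0.589 in limma) and that of miR-126-5p was -1.47 (adjusted p = 0.168 in limma).

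**Figure D2:**
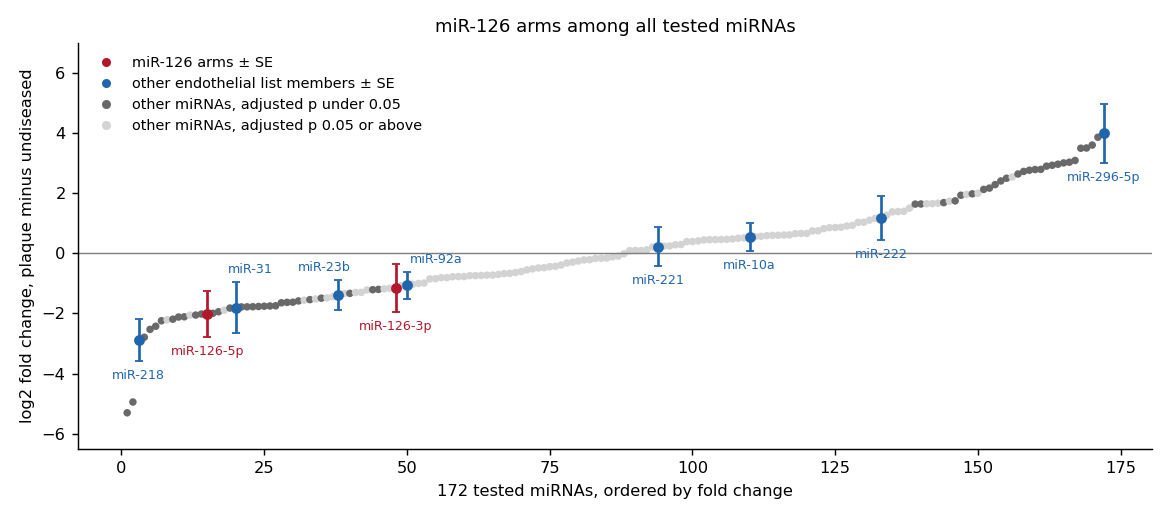
Log2 fold changes (plaque minus undiseased artery) of the 172 tested miRNAs in ascending order, with the miR-126 arms in red and the other 8 tested members of the endothelial list in blue (bars, SE), and other miRNAs in dark grey where the adjusted p was under 0.05. miR-126-5p (-2.02) is number 15 from the lowest, and miR-126-3p (-1.15) is number 48.

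The comparison can be made with no reference by taking the Ct gap between an arm and each other assay within a sample. Of the other 122 miRNAs detected in all 8 samples, miR-126-3p was lower in plaque relative to 88 by the group means, and the gap separated the groups without overlap for 16. miR-126-5p was lower relative to 111 of the 122, with no overlap for 35. For both arms, 0 miRNAs gave a gap without overlap in the opposite direction. By the group means, however, both arms were higher in plaque relative to the smooth muscle miRNAs miR-143 and miR-145, with overlap. The rise was 3.80 and 4.16 cycles for miR-126-3p, and 2.93 and 3.28 cycles for miR-126-5p. The 122 include miRNAs of the second panel, whose fold changes centred higher, so gaps to those include the difference between panels. The counts by group means restate the order of fold changes in the same 8 samples and are no separate support. How many such gaps other miRNAs give was not counted.

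Which plaque sample looked rich in miR-126 depended on the RNA it was set against. U6, a small nuclear RNA used as a loading control, had a raw Ct of 20.0, 18.4, 19.2 and 14.1 in plaque 1 to 4, against 16.1, 15.3, 14.9 and 16.3 in undiseased artery 1 to 4. The Ct of miR-126-3p minus that of U6 was 5.43, 11.6, 9.50 and 8.74 cycles in plaque 1 to 4, against 6.50, 7.68, 7.39 and 7.31 in undiseased artery 1 to 4. By this measure plaque 1 had the most miR-126-3p of all samples and plaque 4 less than every undiseased one. Against the mean of the 6 control RNAs, the Ct gap of miR-126-3p was 1.43, 7.29, 4.81 and 2.60 cycles in plaque 1 to 4, against 1.54, 2.95, 2.50 and 2.62 in undiseased artery 1 to 4. Plaque 2 and plaque 3 were the lowest by each of these controls, and plaque 1, rather than plaque 4, was then the highest plaque sample.

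For the 5p arm plaque 2 and plaque 4 were the lowest by the same controls. Its Ct minus that of U6 was 8.45, 15.6, 12.6 and 14.4 cycles in plaque 1 to 4, against 9.34, 11.2, 10.4 and 10.2 in undiseased artery 1 to 4. Against the mean of the control RNAs, its Ct gap was 4.45, 11.3, 7.93 and 8.25 cycles in plaque 1 to 4, against 4.38, 6.52, 5.48 and 5.56 in undiseased artery 1 to 4. By both measures plaque 2, 3 and 4 lay beyond the whole undiseased range, while plaque 1 lay before it by U6 and inside it by the control mean. The log2 fold change was -2.47 with U6 (adjusted p = 0.470 in limma) and -2.50 with the control RNAs (adjusted p = 0.203 in limma). For the 3p arm it was -1.59 with U6 (adjusted p = 0.605 in limma) and -1.63 with the control RNAs (adjusted p = 0.354 in limma). The control RNAs themselves were later in plaque by 0.95 cycles (Y1) to 3.51 cycles (U87).

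The spread within plaque was wide for both strands. The SD of the normalised level of miR-126-3p was 4.46 times as large in plaque as in undiseased artery, and that of miR-126-5p 2.50 times. Across the 124 miRNAs detected in all samples the median SD was 0.96 in plaque and 0.44 in undiseased artery. By SD in plaque, miR-126-3p ranked number 11 and miR-126-5p number 17 from the highest of the 124, whereas in undiseased artery miR-126-3p ranked number 66 and miR-126-5p number 29.

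The low mean of the 3p arm rested largely on plaque 2. Without that sample, the log2 fold change of miR-126-3p was -0.33 (adjusted p = 0.687 in limma) and that of miR-126-5p was -1.18 (adjusted p = 0.117 in limma). Without plaque 4, the sample with early amplification, miR-126-3p stood at -1.85 (adjusted p = 0.0534 in limma). Without plaque 1 the 5p arm passed, at -2.47 (adjusted p = 0.0472 in limma), in a fit where 19.1% of 178 tested miRNAs were called lower. With plaque 2 and 3 both left out, miR-126-3p was at 0.21 and miR-126-5p at -1.04, and both were short of the threshold. In order of Ct among the same 124 miRNAs, miR-126-3p was number 81 in plaque 2, against number 18 to 33 in the other 3 plaque samples and number 18 to 30 in undiseased artery.

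**Figure D3:**
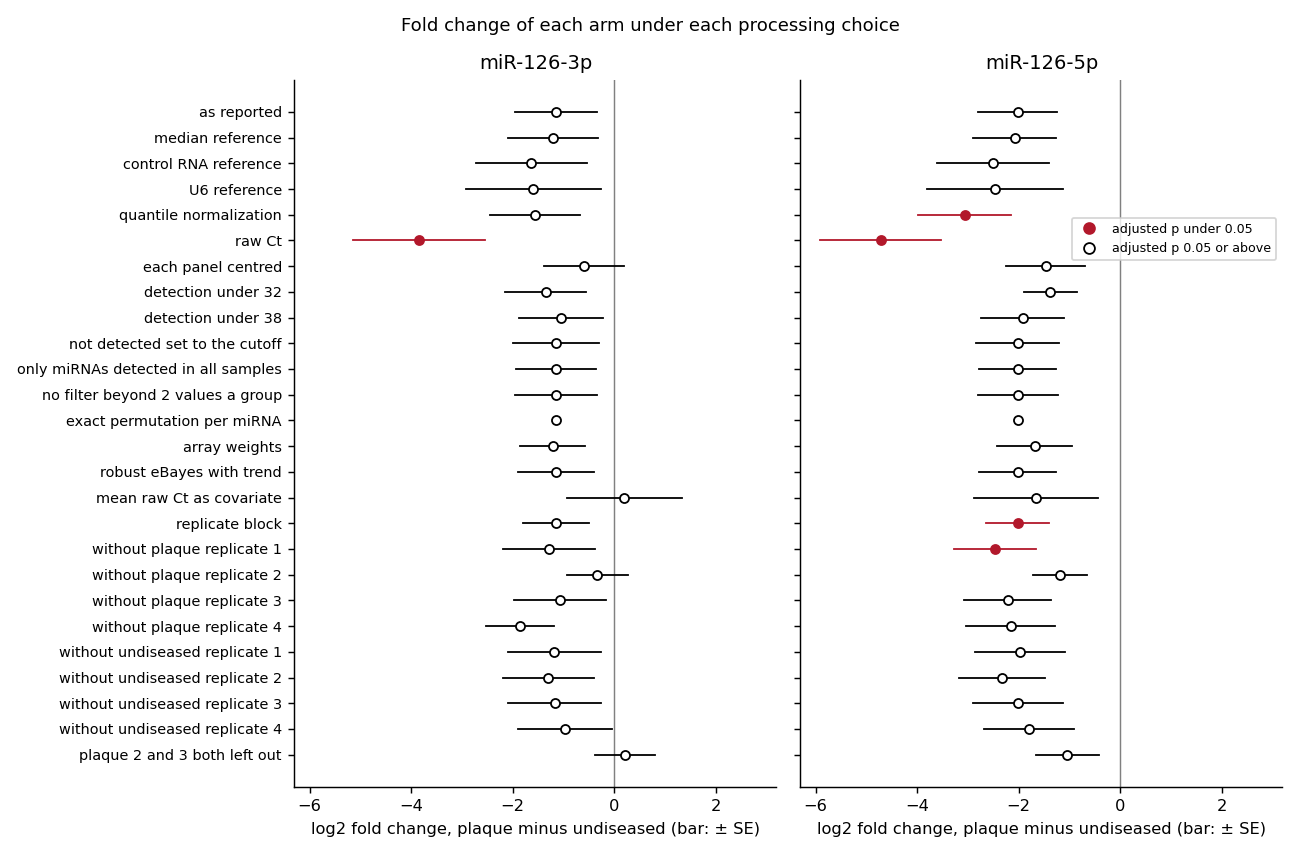
Log2 fold change (plaque minus undiseased artery) of miR-126-3p (left) and miR-126-5p (right) with limma's SE under each processing choice, filled red where the adjusted p was under 0.05. The 3p arm lies right of 0 in 2 settings, at 0.20 and 0.21, and the 5p arm lies left of 0 in all those drawn.

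The 2 samples with the latest mean raw Ct, plaque 3 (29.9) and plaque 2 (28.8), had the 2 lowest levels of miR-126-3p, 1.20 and -1.13, though not in the same order. With the mean raw Ct as a covariate, the log2 fold change of miR-126-3p was 0.20 (SE 1.14, adjusted p = 0.909 in limma) and that of miR-126-5p was -1.66 (SE 1.22, adjusted p = 0.395 in limma). The number of miRNAs detected was 232, 175, 148 and 240 in plaque 1 to 4, against 288, 265, 274 and 227 in undiseased artery 1 to 4. Undiseased artery 4, with a mean raw Ct later than that of plaque 4, had the highest 5p level of all samples, 0.07.

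**Figure D4:**
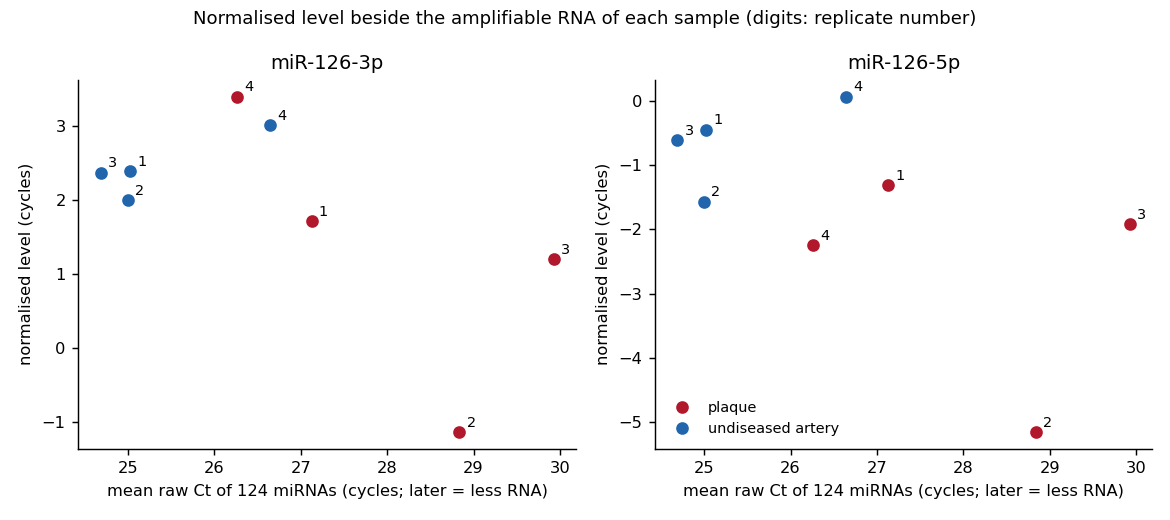
Normalised level of miR-126-3p (left) and miR-126-5p (right) against the mean raw Ct of 124 miRNAs, both in cycles, for plaque (red) and undiseased artery (blue), with replicate numbers. Plaque 2, at 28.8 raw cycles, is lowest for both arms, while plaque 3, at 29.9, is higher than plaque 2 in both.

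Both strands come from 1 precursor and were read in the same sample, so the gap between them within a sample needs no reference. Assay efficiencies differ, so its size is not a strand ratio, and its change between samples is what can be read. The level of miR-126-5p minus that of miR-126-3p was -3.02, -4.02, -3.12 and -5.64 cycles in plaque 1 to 4, against -2.84, -3.57, -2.98 and -2.94 in undiseased artery 1 to 4. Plaque 1 and 3 lay inside the undiseased range, and plaque 2 and 4 lay below it. The mean was -3.95 ± 1.21 in plaque and -3.08 ± 0.33 in undiseased artery (SD, n = 4 each), a difference of -0.87 (SE 0.63, exact permutation test, two-sided, p = 0.171). Without plaque 4 the difference was -0.31 (exact p = 0.429, 3 against 4 samples), so that sample, in which the 3p arm was early and the 5p arm was not, held most of it.

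The arms followed each other across samples to a degree that rested on few of them. Over the 8 samples the normalised levels of the arms had a Pearson's r of 0.81 (exact permutation p = 0.0785) and a Spearman's rho of 0.48 (exact permutation p = 0.243). With the 2 samples farthest from the median of the 3p level left out (plaque 2 and 4), r was 0.95, and with those farthest on the 5p level left out (plaque 2 and undiseased artery 4), r was -0.07. The relation therefore depended on which samples were kept.

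The miRNA closest to miR-126-3p in pattern was miR-150, a miRNA of mature lymphocytes, and not the other arm. Likeness was measured by Pearson's r of the normalised levels over the 8 samples, among the other 123 miRNAs detected in all of them, and all share the sample means that were subtracted. The value for miR-150 was 0.97. Its level was 0.75, -1.11, 0.95 and 3.16 in plaque 1 to 4, against 1.73, 1.63, 1.35 and 2.44 in undiseased artery 1 to 4. Like miR-126-3p, it was lowest in plaque 2 and highest in plaque 4. Without plaque 2 and 4, its r was 0.88. Next were miR-16 (0.88), which red cells and most other cells hold, miR-30a* (0.87), miR-30e* (0.85) and miR-133a (0.84), a miRNA of striated muscle. For miR-133a the value turned to -0.79 without plaque 2 and 4. The 5p arm was number 7 in this order, and the median r over all 123 was 0.05.

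For miR-126-5p the order began with let-7g (0.83), a member of the let-7 family of differentiated cells. The 3p arm of the same hairpin came second (0.81), followed by miR-25 (0.81), of the miR-106b cluster, miR-30d (0.75) and miR-101a (0.74). Of these 5, let-7g (-2.19), miR-25 (-1.78) and miR-30d (-2.02) passed as lower in plaque, beside 18.6% of all tested. Their adjusted p values in limma were 0.0327, 0.0463 and 0.0153, whereas miR-101a was at -0.85 (adjusted p = 0.181). Since r was taken over both groups, a shared group difference is part of this choice. With the group means removed, r was 0.66 for let-7g, 0.78 for miR-126-3p, 0.64 for miR-25, 0.47 for miR-30d and 0.51 for miR-101a. Of the 5 closest to the 3p arm, 0 passed, beside 34.3% of all tested.

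**Figure D5:**
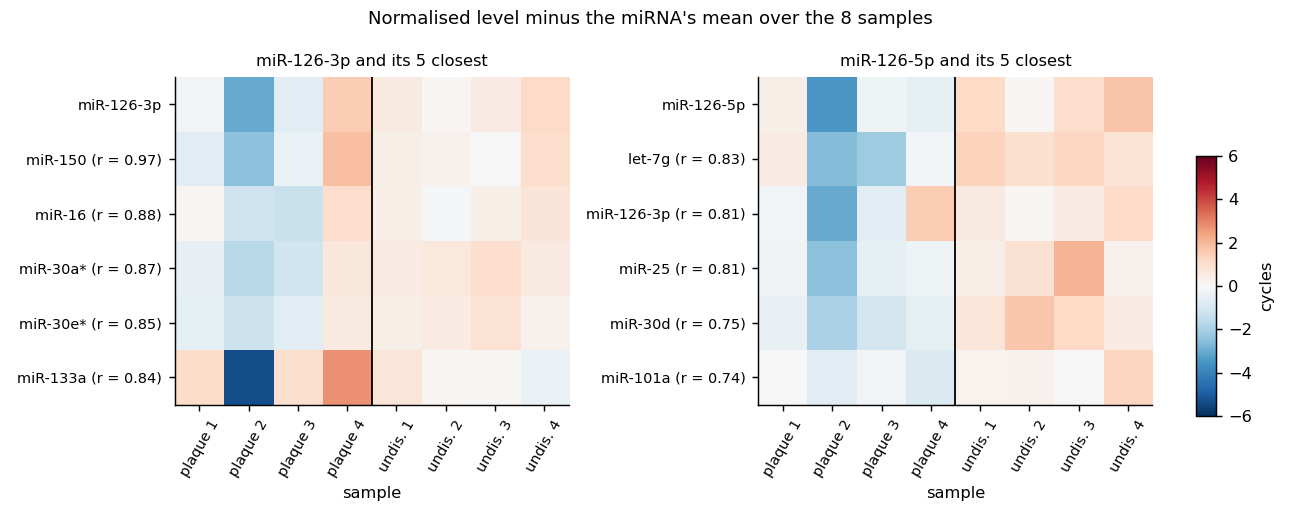
Normalised level of each arm (top row) and of the 5 miRNAs with the highest Pearson's r to it, each minus its own mean over the 8 samples, in cycles, with plaque samples left of the line and undiseased samples right of it. Plaque 2 is the darkest blue column around miR-126-3p, whose level there was -1.13, and plaque 4 (3.40) is red in all 6 rows of that block.

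Other miRNAs listed for endothelium differed in both directions. The table holds miRNAs and control RNAs alone, so the endothelial share of a sample could be judged from such miRNAs only. Of 14 listed, 12 were on the table and 10 were tested, the miR-126 arms among them. Of the 10, 2 passed as lower, 1 passed as higher and 7 did not pass, beside 18.6% lower and 15.7% higher over all tested. The median log2 fold change was -1.11 with both arms and -0.43 over the other 8, against -0.11 for all 172.

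miR-218, made from hairpins within Slit2 and Slit3, was lower (-2.89, SE 0.70, adjusted p = 0.0146 in limma). Its level was -5.83, -5.57, -4.92 and -5.55 in plaque 1 to 4, against -0.24, -3.50, -3.29 and -3.29 in undiseased artery 1 to 4. There was no overlap, as for 18.6% of all tested miRNAs in that direction. Its raw Ct in plaque 1 to 4 was 33.0, 34.4, 34.8 and 31.8, so plaque 2 and 3 lay close to the detection limit of 35. miR-23b, whose cluster takes part in angiogenesis, was also lower (-1.39, SE 0.48, adjusted p = 0.0461 in limma), a call that held in 2 of the 8 fits that left out a sample. Its level was -0.51, -0.80, -1.07 and -1.37 in plaque 1 to 4, against 0.55, 0.73, 1.10 and -0.55 in undiseased artery 1 to 4, where undiseased artery 4 lay within the plaque range.

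miR-296-5p, reported to promote angiogenesis, was higher (3.98, SE 0.99, adjusted p = 0.0153 in limma), the highest fold change of all 172. Its level was -0.73, 0.48, -1.11 and -4.13 in plaque 1 to 4, against -3.68, -5.58, -4.78 and -7.38 in undiseased artery 1 to 4, so that plaque 4 lay below undiseased artery 1. miR-92a, which restrains vessel growth, was at -1.07 (adjusted p = 0.0866), without overlap between groups, and miR-31 was at -1.81 (adjusted p = 0.121). miR-222 (1.17, adjusted p = 0.235), miR-10a (0.54, adjusted p = 0.401) and miR-221 (0.22, adjusted p = 0.805), in limma as well, had signs opposite to those of the arms. For miR-221 the sign was not settled, at -0.37 to 0.64 when 1 sample was left out, and it read 40 in plaque 3 and undiseased artery 4. Of the untested members, miR-210 was detected in 1 plaque and 4 undiseased samples and miR-132 in 1 plaque and 3 undiseased samples. Both read 40 in plaque 1 to 3, yet 24.8 and 24.4 in plaque 4, and miR-132 also read 40 in undiseased artery 4. Detection was lower in plaque at large, with a mean of 198.8 miRNAs per sample against 263.5 in undiseased artery. How many miRNAs were detected in fewer plaque samples was not counted.

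Markers of other cell types moved beside miR-126, and their part in its values was not tested. These lists, like that for endothelium, were chosen with earlier results of these data known, so their counts are description and not a test. All 6 smooth muscle miRNAs tested passed as lower in plaque, beside 18.6% of all tested, with a median of -2.18. They were led by miR-145 (-5.30) and miR-143 (-4.95). Of the 8 fits that left out a sample, the call held in 4 for miR-204 and for miR-125b-5p, in 5 for miR-100, and in all 8 for miR-145, miR-143 and miR-99a. The mean level per sample, over those of the 6 that were detected, was 1.39 to 3.08 in plaque and 4.38 to 5.09 in undiseased artery. Plaque 2, where miR-204 read 40, was averaged without it. Of 8 leukocyte miRNAs tested, 4 passed as higher, beside 15.7% of all tested, and 0 as lower. They were led by miR-146b (3.60) and miR-342-3p (2.92), with miR-155 (2.79) and miR-21 (1.93). Leaving out 1 sample at a time, the call held in 8 of 8 fits for miR-146b and miR-155, in 2 of 8 for miR-342-3p and in 1 of 8 for miR-21. Of the leukocyte miRNAs that did not pass, miR-142-3p, a miRNA of blood cells generally, was at -0.22 (adjusted p = 0.878 in limma) and miR-150 at -0.85. miR-146a did not pass either (adjusted p = 0.132 in limma), with a fold change above 0, at 0.79 to 2.18 when 1 sample was left out. miR-142-5p was detected in 1 plaque and 4 undiseased samples, at a Ct of 32.2 to 33.0. In plaque 4 it read 35.5, just past the detection limit of 35. The mean level of the tested leukocyte miRNAs was -0.89 to 1.33 in plaque and -1.85 to -1.04 in undiseased artery, leaving out miR-223, whose Ct near 10 in 3 samples cannot be read as a level.

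Blood and heart miRNAs did not pass. Of 3 red cell and platelet miRNAs tested, 0 passed, beside 34.3% of all tested, with a median of -0.70, or -1.13 without miR-223. miR-16 was at -0.70 (adjusted p = 0.380 in limma). miR-451, an erythroid miRNA, was at -1.56 (adjusted p = 0.0878 in limma) and read 40 in plaque 4, the sample with the highest miR-126-3p level, and miR-486 was detected in 0 of 8 samples. Of 3 heart muscle miRNAs tested 0 passed (median 0.61), with miR-133b at 1.10 (adjusted p = 0.0947 in limma) and miR-1 at 0.61 (adjusted p = 0.523 in limma). Both read 40 in plaque 2, the sample lowest in miR-126. miR-208, encoded in a heart myosin gene, was detected in plaque 1 and plaque 3 and in 0 undiseased samples, while miR-499 was detected in 0 of 8.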

How the data were processed

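The authors deposited 1 table of Ct values, which look unnormalised and unfiltered, and a well without amplification reads 40. RNA came from the RecoverAll kit and the probes carried the dye FAM, per the labels. How RNA was amplified and Ct read is otherwise not stated. The title of plaque 4 calls it replicate 4 and its description replicate 3, and the title was used.

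Detection meant a Ct under 35. From each sample the mean Ct of 124 miRNAs, those with detection throughout, was subtracted, and the negative is the normalised level. The 172 miRNAs detected in at least 3 samples of each group were fitted together with limma 3.58.1 under R 4.3.3 (moderated by eBayes, group as the only term, two-sided, values not detected left missing), with Benjamini-Hochberg adjustment over the 172 and a threshold of 0.05. Single measures per sample were compared by exact two-sided permutation of the group means. The fit was tested on simulated tables that gave both groups the spread of undiseased artery, so the wider spread in plaque was not covered. The members and lists were chosen with earlier results of these data known. The named miRNAs are both arms, the 5 closest to each arm in pattern, the tested members of the endothelial list, the 2 members of each other list with the largest change, and the control RNAs. miR-155, miR-21, miR-142, miR-146a, miR-204, miR-125b-5p, miR-100, miR-99a, miR-223, miR-208, miR-499, miR-486, miR-210, miR-132 and the hairpins under other observations were added after their values were seen. Sequences are those of RefSeq. The labels call the samples biological replicates, and p-values measure the spread between them. Alternatives were other references, detection cutoffs, filters and tests, a replicate block, and omission of samples.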

Additional observations from a re-analysis of the deposited data

Results flagged for a closer look

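In 71 groups of 4 values, 4 held a sample far from the others by Dixon's test, and chance gives about 1 in 20. The mean raw Ct of the 124 miRNAs was 26.6 in undiseased artery 4, against 24.7 to 25.0 in the other undiseased samples. The level of miR-218 was -0.24 in undiseased artery 1, against -3.50 to -3.29 in the others. The level of miR-25 was -5.93 in plaque 2, the sample where both miR-126 arms were lowest, against -4.04 to -3.69 in the other plaque samples. The level of miR-21, a leukocyte list member, was -0.54 in undiseased artery 3, against -0.94 to -0.88 in the others. No value of either miR-126 arm, nor of the gap between them, stood apart by this test, although plaque 2 was the lowest for both arms.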

How the results depend on the processing

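Under 25 alternatives the log2 fold change of miR-126-5p was below 0 each time and passed in 4: with quantile normalization (-3.06, adjusted p = 0.0266, 21.5% of tested miRNAs called lower), on raw Ct (-4.72, adjusted p = 0.00909, 47.1% called lower), with a replicate block (-2.02, adjusted p = 0.0353, 12.8% called lower) and without plaque 1. Leaving out 1 sample gave -2.47 to -1.18. miR-126-3p passed on raw Ct (-3.84, adjusted p = 0.0263) and turned above 0 with mean raw Ct as a covariate (0.20) and with plaque 2 and 3 both left out (0.21), where the cause was not tested. Leaving out 1 sample gave -1.85 to -0.33. For both arms the fold change stayed as reported under the other filters, filling in at the cutoff, the exact test, the robust fit and the replicate block. Both arms were detected in all 8 samples, so their sign in those settings was fixed in advance. The arm difference stayed below 0 and did not pass in 13 alternatives, at -1.18 to -0.31 with 1 sample left out. Among these, centring each panel and a detection cutoff of 38 could not change it, and a cutoff of 32 only left out plaque 2. The replicate block could not pass, since its exact test of same-numbered samples gave p = 0.125, the smallest it can give. The difference in mean raw Ct passed without plaque 4 (2.12 to 3.29 over the 8 omissions, the highest without plaque 4). Deviations of same-numbered samples correlated weakly (r of 0.13, 0.19, -0.24 and -0.16 for numbers 1 to 4 over 124 miRNAs). Not every sample correlated best with its own number. Such values cannot decide whether any same-numbered samples came from 1 mouse, since tissues of 1 mouse need not deviate together. The replicate block gave 49 calls. Calls over all miRNAs were 59, and 2 with control RNAs, 2 with U6, 35 with each panel centred, 13 with the covariate, 39 without plaque 2 and 3, and 25, 19 and 20 without undiseased artery 1, 2 and 3. The exact test per miRNA gave 0 calls after adjustment and 51 unadjusted p under 0.05. Since this test cannot give a p below 0.0286, its lowest adjusted p was 0.0964, and 0 calls says little about the miRNAs. With 4 samples a group, the interval of the 3p arm still ran from a 7.48-fold lower to a 1.53-fold higher level.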

Other observations

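miR-126 was 1 of 7 hairpins with both strands detected in all 8 samples. The change of its strand gap was the lowest of the 7 when no allowance was made for the panel of each strand. The level of the second strand minus that of the first, plaque minus undiseased artery, was -0.87 for miR-126 (5p minus 3p), -0.65 for miR-214, -0.26 for miR-30e and -0.01 for miR-30a, and 1.52 for miR-877, 1.57 for miR-21 and 2.31 for miR-29b (star strand minus the other). For miR-126 and miR-877 both strands were on 1 panel, and for the other 5 the star strand was on the second panel. Tested miRNAs centred on -0.73 in the first panel and on 0.82 in the second (medians of the log2 fold changes). The gaps of those 5 hairpins include this offset between panels, and that of miR-126 does not. miR-214, miR-30e and miR-30a lay above miR-126 by less than the distance between these medians. Taking that distance off their gaps would put them below miR-126, so its lowest place cannot be read apart from the panels. These hairpins were chosen after their values were seen, and no test was made between them.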
